A study of Sus scrofa with 14 samples.

Results

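Products of the gastric surface were followed through both glandular regions of the young pig stomach: gastrokine 1 (GKN1), gastrokine 2 (GKN2) and mucin 1 (MUC1). They were chosen by name, as the transcript rows whose single gene symbol is GKN1, GKN2 or MUC1, which gave 3 rows, 1 for each gene, of 27460 rows on the array. The samples were oxyntic mucosa (OXY, from the acid-secreting gland area near the greater curvature) and pyloric mucosa (PYL, from near the pyloric sphincter) of the same 7 pigs, so 14 arrays in all. All pigs were males of the Large White X Landrace cross, weaned, 5 to 6 weeks old with a mean body weight of 11.1 kg, and all were fed a post-weaning diet for 5 days. No pig was treated, and the comparison is between the regions within each pig. The methods describe the pieces as transmural sections, so that tissue below the epithelium can be included.

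Surface mucous cells line the lumen and the pits of the stomach in both regions and secrete a viscous mucus that holds bicarbonate against the acid. GKN1 and GKN2 are small secreted proteins of these cells with a BRICHOS domain, a fold also found in the surfactant protein C precursor and in the ITM2 membrane proteins. In humans GKN2 binds the trefoil peptide TFF1, and GKN1 is known for effects on the renewal and repair of the surface epithelium. MUC1 is a mucin that stays in the apical membrane, where its long glycosylated part extends into the lumen and its short tail faces the cytoplasm. MUC5AC, TFF1 and TFF2, the other well known surface and neck products, are not analysed here.

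The labels were checked against the genes that define each region. ATP4A, the catalytic subunit of the proton pump of the parietal cell, had log2 intensities of 11.93 to 12.33 on the 7 OXY arrays and 4.21 to 4.97 on the 7 PYL arrays, and gastrin (GAST) was higher in PYL in all 7 pigs. FABP2, an absorptive cell marker of the small intestine, was among the dimmest signals in both mucosae (2.41 to 3.55 in OXY and 2.47 to 3.67 in PYL). The 14 measured intestinal genes had a median level of 3.78, but not all were dim. VIL1 had means of 7.02 in OXY and 8.97 in PYL, and CDH17 of 5.51 and 7.59. VIL1 was the 1 gene of this list called, higher in PYL (adjusted p = 0.0059 from limma), as were 4.46% of all rows. The arrays fall into 2 sets with different value distributions, pigs 1 to 3 and pigs 4 to 7, with medians of 4.83 to 4.92 and of 5.63 to 5.73. Each pig has both of its arrays in 1 set, so a constant step between the sets drops out of differences within pigs. The step was smaller at the upper end, where the highest values were 12.56 to 12.62 in pigs 1 to 3 and 12.87 to 12.93 in pigs 4 to 7. A part of the step that depends on intensity does not drop out. The PYL arrays of pigs 4 and 7 stood apart from those of pigs 5 and 6, with Spearman correlations over rows of 0.954 to 0.965, against 0.989 between pigs 4 and 7 and 0.991 between pigs 5 and 6. The change of each of the 3 genes is therefore given with and without these 2 pigs.

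GKN2 gave one of the strongest signals of the array in both mucosae, with only a small step between them. In OXY its log2 intensity was 12.12 at the lowest, 12.53 at the median and 12.64 at the highest of 7 arrays, and in PYL 12.30, 12.61 and 12.72. The SD over pigs contains the step between the sets of arrays and was 0.24 around a mean of 12.40 in OXY and 0.17 around 12.54 in PYL (n = 7). The ranges of both mucosae thus overlapped over all arrays. Within pigs 1 to 3 the PYL arrays (12.30 to 12.42) lay above the OXY arrays (12.12 to 12.17) without overlap, an order shared by 13.1% of all rows. On every array GKN2 was between the 4th and the 12th highest row by value, and 0.14 to 0.47 log2 units below the highest value of its array. Whether the signal was limited at this upper end was not tested.

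The difference within pigs put GKN2 lower in OXY than in PYL in 7 of 7 pigs, which 5.06% of all rows also did. It was -0.23, -0.30, -0.15, -0.06, -0.18, -0.08 and -0.004 (log2, OXY minus PYL) in pigs 1 to 7, so it was widest in pig 2 and almost 0 in pig 7. The change was -0.14 (SE 0.06, 95% interval -0.27 to -0.02), which is 1.11-fold more in PYL with an interval of 1.01 to 1.21. An exact two-sided sign-flip permutation test of the 7 differences gave p = 0.016, the smallest that 7 pigs allow. Over all 27460 rows, limma gave an adjusted p = 0.15, above the threshold. The direction was therefore the same in all pigs, but the change was not called among all rows. It was -0.19 without pigs 4 and 7 (adjusted p = 0.13 from limma), also not called. None of the 3 genes was called, against 11.3% of all rows (6.88% higher in OXY and 4.46% higher in PYL).

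GKN1 was also at the upper end of the array values, farther from the highest value than GKN2. Its log2 intensity was 11.31, 11.95 and 12.07 (lowest, median and highest) in OXY and 11.69, 11.82 and 12.27 in PYL, so the ranges overlapped. The means were 11.76 ± 0.31 in OXY and 11.92 ± 0.23 in PYL (SD, n = 7). It ranked between 15 and 66 of the rows of an array and lay 0.60 to 1.31 log2 units below the highest value. The highest GKN1 values of all were those of the PYL arrays of pigs 6 and 5.

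The differences of GKN1 within pigs were -0.21, -0.30, -0.38, 0.13, -0.23, -0.23 and 0.10 in pigs 1 to 7, so 5 pigs had more in PYL and pigs 4 and 7 had more in OXY. The change was -0.16 (SE 0.08, 95% interval -0.34 to 0.02), or 1.12-fold more in PYL with an interval of 0.99 to 1.26. The adjusted p of 0.24 from limma and the exact sign-flip permutation p of 0.078 were both above the threshold of 0.05. Without pigs 4 and 7 the change was -0.27 (range of the 5 pigs -0.38 to -0.21), and it then passed with an adjusted p of 0.039 from limma, where 12.7% of all rows did (6.71% higher in OXY and 5.98% higher in PYL). The call at GKN1 thus rests on whether these 2 pigs are included. Within the sets the change was -0.30 in pigs 1 to 3 and -0.06 in pigs 4 to 7.

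MUC1 was the most variable of the 3 genes between pigs and had no common direction. In OXY its log2 intensity was 10.14, 10.85 and 11.11 (lowest, median and highest), and in PYL 10.29, 10.52 and 11.34. The means were 10.76 ± 0.37 and 10.71 ± 0.39 (SD, n = 7). The lowest OXY value belonged to pig 2 and the lowest PYL value to pig 7. MUC1 lay 1.53 to 2.59 log2 units below the highest value of its array, and its rank among the rows was between 151 and 317 on all arrays but 2. These were the PYL arrays of pigs 4 and 7, where it ranked 513 and 620.

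The differences of MUC1 within pigs were -0.02, -0.58, 0.09, 0.40, -0.05, -0.24 and 0.79 in pigs 1 to 7. OXY was higher in 3 pigs and PYL in 4, and the differences had an SD of 0.44, against 0.20 for GKN1 and 0.10 for GKN2. The change was 0.05 (SE 0.15, adjusted p = 0.86 from limma, exact sign-flip permutation p = 0.77). Its 95% interval ran from -0.28 to 0.39, which is from 0.82 to 1.31 as a ratio of OXY to PYL, so differences of that size in either direction are not excluded by 7 pigs. Pigs 4 and 7 had the largest values towards OXY, with a mean of 0.59, and without them the change was -0.16 (adjusted p = 0.42). Within the sets it was -0.17 in pigs 1 to 3 and 0.22 in pigs 4 to 7. Its sign thus depends on the pigs included.

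**Figure D1:**
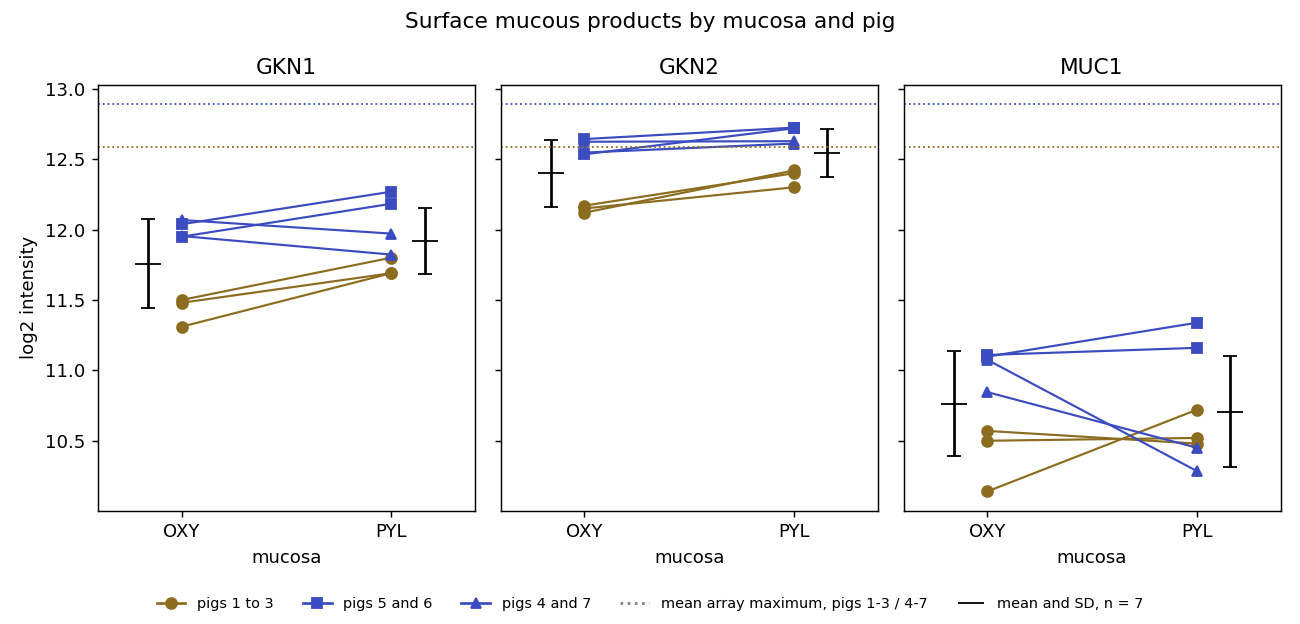
Log2 intensity of GKN1, GKN2 and MUC1 in OXY and PYL, with a line for each pig (brown circles for pigs 1 to 3, blue squares for pigs 5 and 6, blue triangles for pigs 4 and 7), black bars for the mean and SD of 7 pigs and dotted lines for the mean highest value of the arrays of each set. GKN2 lies close to the dotted lines in both mucosae, and the lines of pigs 4 and 7 fall from OXY to PYL at MUC1 and GKN1, by 0.40 and 0.79 at MUC1.

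The change from OXY to PYL was not shown to differ between the sets of arrays for any of the 3 genes. The change in pigs 4 to 7 minus that in pigs 1 to 3 was 0.24 (SE 0.14) for GKN1, 0.14 (SE 0.11) for GKN2 and 0.39 (SE 0.28) for MUC1, with adjusted p of 0.50, 0.57 and 0.55 from limma. Of all rows, 0 passed this test, while 3197 (11.6%) had an unadjusted p under 0.05 from limma. The 3 genes were also compared with each other in all 3 pairs, by their differences within pigs. GKN1 and GKN2 changed by nearly the same amount on average (GKN1 minus GKN2 -0.02, SE 0.05, exact sign-flip permutation p = 0.78). The gap of GKN1 to MUC1 was -0.22 (SE 0.12, p = 0.16) and that of GKN2 to MUC1 -0.20 (SE 0.14, p = 0.20), both below 0 in 5 of 7 pigs, with the same exact permutation test and Benjamini-Hochberg adjusted p of 0.30 for each. The gaps without pigs 4 and 7 were -0.08 for GKN1 to GKN2, -0.11 for GKN1 to MUC1 and -0.03 for GKN2 to MUC1, and the exact permutation test of 5 pigs cannot go below p = 0.0625. No pair was shown to differ.

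Over the 7 pigs the correlations between the differences of the 3 genes were above 0 in each pair, with lower r when 2 pigs were left out. For GKN2 and MUC1 Pearson's r was 0.81 (exact permutation p = 0.024, adjusted over 3 pairs 0.073) and Spearman's rho 0.75 (p = 0.066, adjusted 0.20, exact permutation). Without pigs 2 and 7, the farthest from the median at GKN2, r was 0.30. For GKN1 and MUC1 r was 0.77 (p = 0.053, adjusted 0.079) and rho 0.57 (p = 0.20, adjusted 0.20), and for GKN1 and GKN2 r was 0.70 (p = 0.081, adjusted 0.081) and rho 0.61 (p = 0.17, adjusted 0.20), all by exact permutation. Without pigs 4 and 7, the farthest at GKN1, these r were -0.08 and 0.04. Leaving out the farthest pigs narrows the range of values, so r can fall even where a relation holds. None of the relations passed the adjustment.

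Genes of the epithelium in general had their highest values towards OXY in the same pigs as MUC1. Of 6 measured epithelial genes, all 6 were higher in OXY in pig 4 and all 6 in pig 7. The median of this list (the adhesion molecule EPCAM, the simple keratins KRT8, KRT18 and KRT19, claudin 4 and the transcription factor GRHL2) was 0.56 and 1.03 in pigs 4 and 7, and between -0.47 and -0.39 in the other 5 pigs. EPCAM in PYL was 9.45 and 9.56 in pigs 4 and 7, against 10.72 and 10.97 in pigs 5 and 6. The median of 5 smooth muscle genes was -0.77 in pig 4 and -2.06 in pig 7, and that of 7 fibroblast genes -0.54 and -0.62, in both cases with 1 gene of the list higher in OXY. In pigs 1, 2, 3, 5 and 6 the smooth muscle median was -0.91, 0.86, 0.29, -0.21 and -0.52. It was thus opposite in sign to the epithelial median in pigs 2, 3, 4 and 7. In pigs 1, 5 and 6 it had the same sign, so a smooth muscle median below 0 was not particular to pigs 4 and 7. Summed intensities of the smooth muscle genes in PYL did set these 2 pigs apart, with 12600 in pig 4 and 10600 in pig 7. In PYL of the other 5 pigs they were 3820 to 4760. In OXY they were 2630 to 8400, with the highest in pig 4. Those of the epithelial genes were 3910 to 8960 in OXY and 3840 to 8400 in PYL. The part of these tissue differences in the values of MUC1 and GKN1 was not tested. In such whole tissue RNA, fewer cells of a type and less RNA per cell cannot be told apart.

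None of the 6 epithelial genes was called with all pigs (median change -0.22), where 11.3% of all rows were. Without pigs 4 and 7, EPCAM, KRT8 and KRT18 were called higher in PYL, as were 5.98% of all rows. Relative to the mean of these 6 genes on each array, a scaling chosen after seeing the data, the change was -0.07 for GKN1 (SE 0.26), -0.06 for GKN2 (SE 0.26) and 0.14 for MUC1 (SE 0.25), and none was called. This scaling moves the mean change of every gene by the same amount, so the signs carry no further information.

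**Figure D2:**
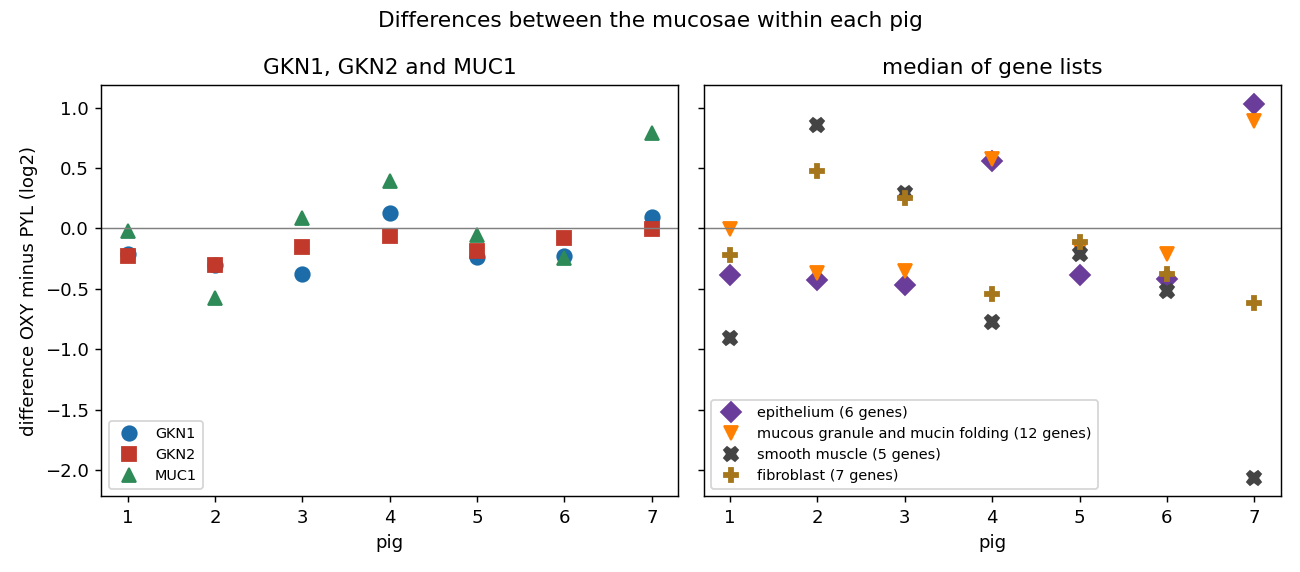
Difference OXY minus PYL (log2) in each of the 7 pigs, for GKN1, GKN2 and MUC1 (left) and for the median of 4 gene lists (right, with the number of measured genes in the legend). MUC1 and the epithelial and mucous granule lists are highest in pigs 4 and 7, where the smooth muscle list is at -0.77 and -2.06, while GKN2 stays between -0.30 and -0.004.

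The size of the changes was also set against the level of the rows. Among the 100 rows with the highest mean (11.22 and above, on the log2 scale), which include GKN2 at rank 6 and GKN1 at rank 27, the median absolute change was 0.085, 10 were called and the largest change was 0.98. In the next 900 rows, where MUC1 is at rank 215, these values were 0.15 for the median, 17.4% called and 4.46 for the largest. Rows of ranks 1001 to 5000 had a median of 0.18, 19.6% called and a largest change of 7.52. The remaining 22460 rows, of lower level, had a median of 0.11, 9.64% called and a largest change of 7.13, so the size of the change did not simply follow the level. A row can have a mean near the top only if it is high in both mucosae, so the small largest change of the top 100 follows in part from the ranking itself. The spread of the differences of GKN2 within pigs was lower than in all but 6.04% of the rows, whereas that of MUC1 exceeded 80.6% of them. By the size of the change itself, GKN1 and GKN2 stood near the middle of all rows, above 60.2% and 56.8% of them, and MUC1 above 27.4%.

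**Figure D3:**
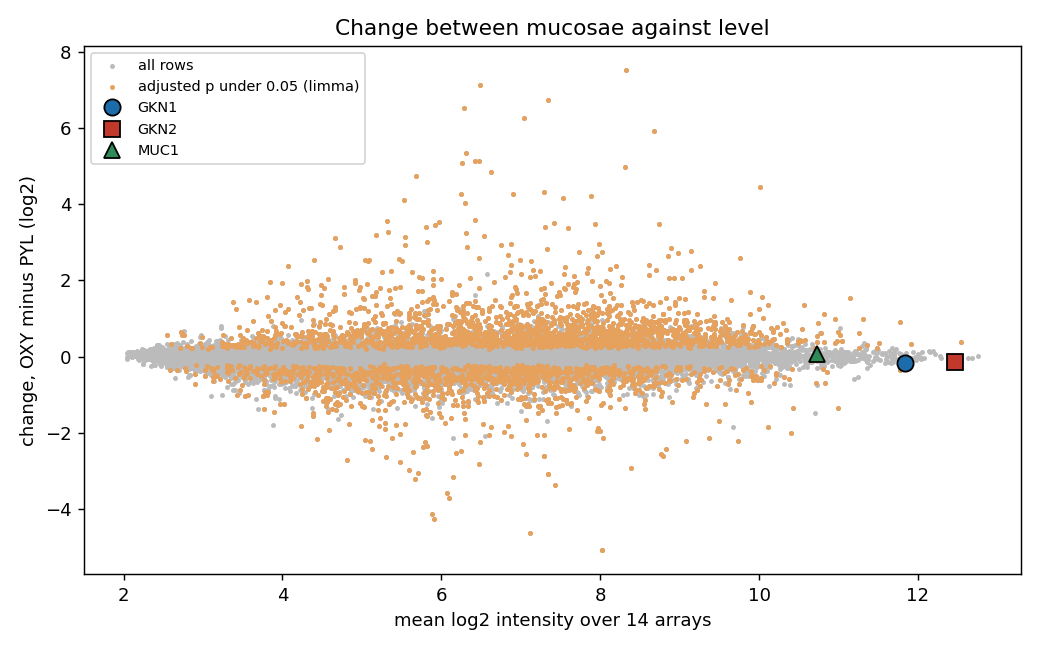
Change OXY minus PYL (log2) of every row against its mean log2 intensity over 14 arrays, with rows at an adjusted p under 0.05 from limma in orange and the 3 genes marked. GKN1 and GKN2 lie at the right end, where the points narrow towards 0 and the largest change among the top 100 rows is 0.98.

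Other genes of the surface mucous cell did not share one direction. Of 22 listed genes 10 were measured, of which 2 were higher in OXY, 1 was higher in PYL and 7 did not pass (all rows 6.88% and 4.46%), with a median change of -0.08 (median of all named genes -0.0018). GKN3, the third gastrokine, had 10.08 to 11.75 in OXY and 10.10 to 11.72 in PYL, so the ranges nearly coincided. Its differences within pigs ran from -0.92 in pig 2 to 0.73 in pig 7, with an SD of 0.59 (change -0.09, SE 0.19, adjusted p = 0.83 from limma). Claudin 18 (CLDN18), the main claudin of the gastric surface, had 0.07 (SE 0.13, adjusted p = 0.80; -0.14 without pigs 4 and 7) and AGR2, a disulfide isomerase needed for mucin folding, -0.12 (SE 0.17, adjusted p = 0.74). FOXQ1, a transcription factor that in the mouse stomach drives MUC5AC, had -0.08 (SE 0.10, adjusted p = 0.66).

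Carbonic anhydrase 9 (CA9), a membrane enzyme with its active site outside the cell, was higher in OXY in 7 of 7 pigs, as were 7.94% of all rows. Its log2 intensity was 11.02 to 11.46 in OXY and 8.97 to 10.49 in PYL. The change was 1.35 (SE 0.24, adjusted p = 0.0089 from limma). VSIG2, an immunoglobulin-like surface protein, was higher in OXY by 0.78 (SE 0.15, adjusted p = 0.014), also in 7 of 7 pigs. The change of both was largest in pigs 4 and 7, with 2.30 and 2.37 for CA9 and 1.34 and 1.48 for VSIG2, and without these pigs it was 0.96 and 0.52, with both still called.

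FER1L6, a membrane protein of the ferlin family, was higher in PYL with -0.83 (SE 0.18, adjusted p = 0.021), in 6 of 7 pigs. It lost its call when pig 3 was left out (adjusted p = 0.064) and in 4 of 7 such fits in all. CAPN9, a calpain of the gastric epithelium, had -0.82 (SE 0.28, adjusted p = 0.10), and without pigs 4 and 7 it was called at -1.28. The retinol dehydrogenase DHRS9 had -0.40 (SE 0.16, adjusted p = 0.16) and TSPAN8, a very dim signal, 0.10 (SE 0.06, adjusted p = 0.39). Without pigs 4 and 7 the list gave 2 genes higher in OXY and 2 in PYL (all rows 6.71% and 5.98%).

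The BRICHOS relatives of the gastrokines were measured for 6 of 10 listed genes, GKN3 included, and 1 was called (all rows 11.3%). ITM2A, a membrane protein of T cells and of developing cartilage and muscle, was higher in OXY by 0.81 (SE 0.16, adjusted p = 0.015). This held in 7 of 7 pigs, as for 7.94% of all rows. ITM2B, whose mutated forms cause familial dementias in humans, was at 11.27 ± 0.49 in OXY and 11.22 ± 0.54 in PYL (SD, n = 7) with a change of 0.06 (SE 0.05, adjusted p = 0.58). ITM2C had -0.26 (SE 0.14, adjusted p = 0.29). SFTPC, the surfactant protein of the lung, and tenomodulin (TNMD), of tendon, were dim, with means of 3.35 and 2.95 in OXY and changes of -0.01 and -0.06, and the sign of SFTPC turned when arrays were centred or scaled to RPL4, and that of TNMD without pigs 4 and 7 (0.02).

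Of 18 other mucins listed, 8 were measured and none was called (all rows 11.3%), with a median change of 0.14. MUC13, a membrane mucin like MUC1, had 7.79 ± 0.79 in OXY and 6.89 ± 0.70 in PYL (SD, n = 7). OXY was higher in 6 of 7 pigs, by 3.00 in pig 7, and the change was 0.90 (SE 0.35, adjusted p = 0.15). The value was 0.41 (adjusted p = 0.30) without pigs 4 and 7. MUC2, the gel-forming mucin of intestinal goblet cells, was at 8.30 and 8.76 in OXY of pigs 6 and 7 and between 4.45 and 5.52 in OXY of the other pigs. The change was 0.84 (SE 0.59, adjusted p = 0.43), and PYL was higher in 3 of 7 pigs. The sialomucin CD164, found in most cells, had 0.11 (SE 0.06, adjusted p = 0.33). MUC20 had 0.17 (SE 0.10), and MUC4, MUC15, MUC19 and OVGP1 were dim, with means from 2.86 (MUC15 in PYL) to 3.52 (OVGP1 in OXY).

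**Figure D4:**
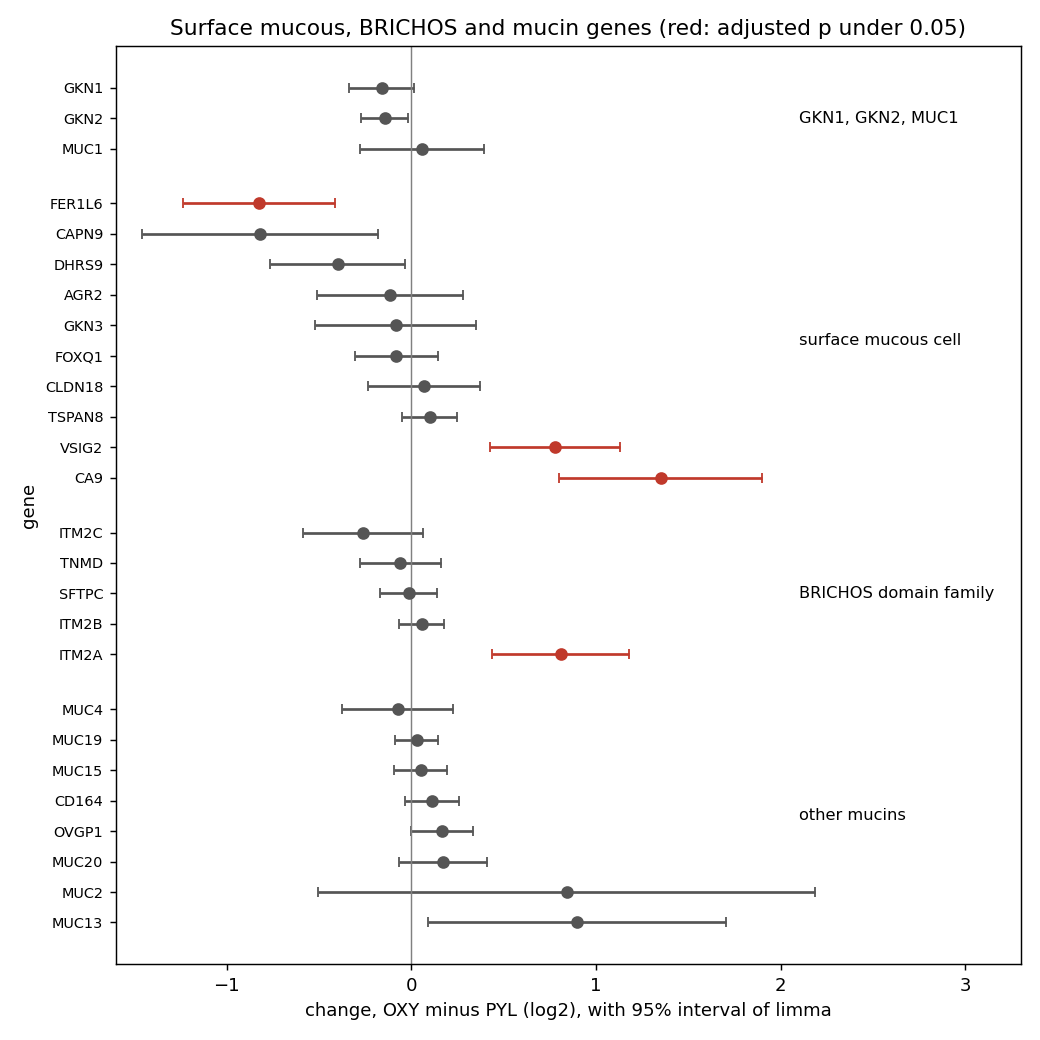
Change OXY minus PYL (log2) with the 95% interval of limma for GKN1, GKN2, MUC1 and the measured genes of the surface mucous, BRICHOS and mucin lists, in red where the adjusted p is under 0.05. Only FER1L6 (-0.83), VSIG2 (0.78), CA9 (1.35) and ITM2A (0.81) are red.

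MUC1 is bound and cut by other proteins, and 14 of 16 listed were measured. ERBB4, a receptor of the neuregulins whose family binds the tail of MUC1, was the 1 gene called, where 11.3% of all rows were. It had 1.39 more in OXY (SE 0.23, adjusted p = 0.0064 from limma, 7 of 7 pigs). ADAM17, which sheds the outer part of MUC1, had -0.21 (SE 0.06, adjusted p = 0.051). It was below 0 in 7 of 7 pigs, as were 5.06% of all rows. The sheddase MMP14 had a change of 0.0046 with a sign that turned under quantile normalization. Catenin beta 1 (CTNNB1), which binds the tail, had 0.17 (SE 0.06, adjusted p = 0.095), and SIGLEC1 of the same list 0.20 (SE 0.11, adjusted p = 0.28 from limma). Like ERBB4, CTNNB1 and SIGLEC1, 7.94% of all rows were higher in OXY in 7 of 7 pigs. Without pigs 4 and 7, the receptors ERBB2 and ERBB3, the galectin LGALS3, which binds MUC1 sugars, and the kinase LYN were called higher in PYL (all rows 5.98%). ADAM17, MMP14, CTNNB1, SIGLEC1 and these 4 genes were named after their values had been seen.

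Genes that fold mucins, fill mucous granules or build mucin sugars had list medians above 0 in pigs 4 and 7, where MUC1 was also higher in OXY. Of 12 genes of granules and folding, 11 were higher in OXY in pig 4 and 12 in pig 7. Of 14 genes of mucin sugar synthesis it was 11 and 12, and GCNT3 was lower in both (-3.39 and -1.17). The share of all rows above 0 in these pigs was not counted. The median of 12 genes of granules and folding was 0.02 over pigs, but 0.58 in pig 4 and 0.89 in pig 7, and between -0.37 and -0.005 in the others. Of these, ERN1, a sensor of unfolded proteins, was the 1 gene called, where 11.3% of all rows were. Its change was 0.62 (SE 0.15, adjusted p = 0.032 from limma, 6 of 7 pigs above 0). ERN1 lost the call in 6 of 7 fits without 1 pig (adjusted p up to 0.077 without pig 5) and without pigs 4 and 7 (0.071). Of 14 genes of mucin sugar synthesis, GCNT4 was higher in OXY by 1.72 (SE 0.16, adjusted p = 3.2e-04) and GCNT3 was higher in PYL, with -3.08 (SE 0.39, adjusted p = 0.0015), where 6.88% and 4.46% of all rows were. Both attach branches to mucin sugars. The median of this list was -0.0055, and 0.42 and 0.81 in pigs 4 and 7. Without these pigs, 5 of its genes were called higher in PYL and 1 in OXY, where 5.98% and 6.71% of all rows were.

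The genes with the pattern most like each of the 3 were found by Pearson's r over the 14 arrays, after taking the mean of its set from each value. The 2 arrays of a pig are not independent, so r is given as a description. For MUC1 the 5 nearest of the named genes were KDF1, the channel-like protein TMC4, the phospholipid enzyme CDS1, the small GTPase RAB25 and the kinase FRK, with r from 0.94 to 0.96. None of them was called, where 11.3% of all rows were, with changes from -0.07 to 0.16. For GKN2 they were LRRC1, the G protein subunit GNA14, ASB9, GOLGA7 and the nucleotidase ENTPD8 (r 0.94 to 0.96). All but GOLGA7 were called higher in PYL, where 4.46% of all rows were. Their changes ran from -1.31 for GNA14 to -0.65 for LRRC1 (adjusted p = 0.013 and 0.021 from limma). GOLGA7 had -0.30 (adjusted p = 0.093 from limma). For GKN1 they were AMMECR1, NOB1, TAOK3, LPIN2 and GAL3ST1 (r 0.93 to 0.96), with changes from -0.51 to -0.17 and no call. The values still contain the difference between the mucosae, so the signs and calls of these genes are in part built into their choice.

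None of the 3 genes was among the nearest genes of another. The nearest genes were picked by their r, so a lower r for every other gene follows from that choice. Only the places of the 3 genes in each other's lists are therefore described. GKN1 and GKN2 had r = 0.83, which placed GKN1 at 168 of the named genes in the list of GKN2. GKN2 was at 207 in the list of GKN1. MUC1 had r = 0.56 with GKN1 and 0.38 with GKN2 and was at place 1491 and 2381 of their lists. In the list of MUC1, GKN1 was at 1648 and GKN2 at 3054.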

How the data were processed

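Total RNA of OXY and PYL of 7 pigs was hybridized on Affymetrix whole-transcript porcine arrays, and the methods name a Robust Multichip Analysis in Expression Console with no version stated. The values deposited by the authors are intensities on a linear scale, 1 value for each of 27460 rows on 14 arrays. Log2 values of pigs 1 to 3 fall on 2 decimals, those of pigs 4 to 7 do not. Log2 was taken here with no further normalization. The platform annotation gives 1 symbol for 11982 rows, several for 373 and none for 15105. A gene with several rows is represented by the row of highest mean.

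The change OXY minus PYL of each row was fitted in R 4.3.3 by limma 3.58.1 with the pig as a block, as in the repeated measures of the methods, with Benjamini-Hochberg adjustment over all rows and a threshold of 0.05. Both mucosae came from the same animal. Their deviations from the mean of mucosa and set correlated between -0.03 and 0.62. Exact sign-flip permutation tests (128 patterns) stand beside it. The procedure was tested on simulated data. The number of arrays limits the precision.

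The genes and lists were chosen with earlier results of these data known. Named are the 3 genes, all measured genes of the surface mucous, BRICHOS and mucin lists, up to 4 called genes of other lists and the 5 genes most like each of the 3. Named outside this rule, after their values were seen, are ADAM17, MMP14, CTNNB1, SIGLEC1, ERBB2, ERBB3, LGALS3, LYN and CDH17. The same holds for the 6 epithelial genes, the region markers and the neighbours in gene order. Alternatives were other scalings, filters, variance models, weights, the methods' own test, no pig term, and leaving out pigs.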

Additional observations from a re-analysis of the deposited data

Results flagged for a closer look

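In 78 groups of 7 values (OXY, PYL and differences within pigs of 26 genes), 1 value lay far from the others of its group. Chance alone gives about 1 in 20 such groups where all values come from 1 distribution. The OXY and PYL groups contain the step between the sets of arrays, so this rate does not apply to them. The difference of TSPAN8 in pig 3 was 0.39 (log2, OXY minus PYL), against -0.05 to 0.10 in the other 6 pigs. TSPAN8 was at 2.05 to 3.01 in OXY and 2.07 to 2.94 in PYL, among the dimmest signals. No value of GKN1, GKN2 or MUC1 was flagged, but the rule could miss such values. It sets the gap of the end value against the range of its group, which in OXY and PYL contains the step between the sets. In addition, 2 pigs that deviate together hide each other, as at MUC1 with differences of 0.40 in pig 4 and 0.79 in pig 7.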

How the results depend on the processing

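GKN2 kept its sign under all 19 alternatives and was called under none, with adjusted p from 0.086 to 1. GKN1 kept its sign under all 19 and was called under 1, without pigs 4 and 7 (-0.27, adjusted p = 0.039). Leaving out 1 pig at a time gave -0.21 to -0.12 for GKN1, -0.17 to -0.12 for GKN2 and -0.068 to 0.16 for MUC1. MUC1 turned negative with array weights (-0.0063), in pigs 1 to 3 (-0.17), without pigs 4 and 7 (-0.16), without pig 4 (-0.0018) and without pig 7 (-0.068), and was called under no alternative (adjusted p from 0.42 to 1).

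Without the pig block (no pairing of the mucosae) the changes of -0.16, -0.14 and 0.05 stayed and no gene was called, with 326 rows higher in OXY and 150 in PYL, against 1888 and 1226. The counts were 665 and 562 in pigs 1 to 3, 686 and 289 in pigs 4 to 7, 1386 to 1705 and 690 to 1232 without 1 pig (784, 787 and 690 in PYL without pigs 1, 3 and 6), and 637 in PYL by the methods' repeated-measures test. The cause was not tested, but the fits of single sets hold fewer pigs. GKN2 and GKN1 lie near the upper end of the array values, and saturation was not tested.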

Other observations

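In the RefSeq gene order of the Sscrofa11.1 assembly, GKN1, GKN2 and GKN3 are neighbours, and MUC1 lies between THBS3 and TRIM46. The files give no positions, and the assembly was used for the order of genes only. Next to the gastrokines, the cardiac growth factor BMP10 was dim in both mucosae (3.19 and 3.18) and had a change of 0.01 (SE 0.06, adjusted p = 0.93 from limma). GFPT1, the first enzyme of hexosamine synthesis, which provides amino sugars for glycans, had 0.30 (SE 0.15, adjusted p = 0.25), with 0.73 and 1.09 in pigs 4 and 7 and -0.15 to 0.27 in the others. Beside MUC1, the matrix protein THBS3 was higher in PYL, with 6.92 ± 0.84 against 5.76 ± 0.49 in OXY (SD, n = 7) and a change of -1.16 (SE 0.25, adjusted p = 0.019, 6 of 7 pigs). TRIM46 and KRTCAP2, on the other side, had 0.17 (SE 0.07, adjusted p = 0.15) and 0.23 (SE 0.14, adjusted p = 0.33). KRTCAP2 was towards OXY by 0.65 and 0.84 in pigs 4 and 7.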
